A study of Mus musculus with 4 samples.

Results

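The respiratory chain and ATP synthase genes were taken as the protein-coding genes on chromosomes 1 to 19 whose symbols begin with Nduf, Uqcr, Atp5, Cox4, Cox5, Cox6, Cox7 or Cox8, together with Sdha, Sdhb, Sdhc, Sdhd, Cyc1 and Cycs. The RefSeq annotation held 95 such genes among 20665 protein-coding genes. They comprised 39 genes of complex I, 8 complex I assembly factors (Ndufaf genes), 4 of complex II, 9 of complex III, Cycs for cytochrome c, 17 of complex IV and 17 of complex V. Genes were assigned by symbol, so Ndufa4 and Ndufa4l2, treated with complex IV further on, were counted in complex I. The question was which of the 95 members had SHP on their chromatin in the fed gut, and how the complexes compared.

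Chromatin immunoprecipitation with sequencing (ChIP-seq) was carried out with an antibody against SHP on jejunum and ileum of SHP-knockout mice and of wild-type mice, both with C57BL/6 given as strain background. The mice were 8 to 12 weeks old, and every group had been fasted for 12 h and then refed chow for 4 h, so no fasted group was compared. Each genotype had an immunoprecipitated and an input sample, described as 3 sets of tissue pooled from 3 mice each. The construct of the knockout was not given in the sources used here. A single peak list per genotype was analysed, with 7 peaks from knockout and 5775 peaks from wild-type intestine. The 2 lists had passed different filters, and read depth was unknown. No replicate lists were analysed, so differences between members have no replicate error. Peaks do not measure RNA, so the tissue could not be checked by its expressed markers, and intact tissue mixes cell types.

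The respiratory chain passes electrons from NADH through complex I, or from succinate through complex II, to complex III, then by the soluble carrier cytochrome c to complex IV, where oxygen is reduced. Complexes I, III and IV pump protons, and complex V uses the proton gradient to make ATP. Most subunits are encoded in the nucleus, where the factors NRF1, GABP (an ETS protein), YY1 and the ERR receptors are textbook regulators of their promoters. SHP (gene Nr0b2) is a nuclear receptor without a DNA-binding domain, which reaches DNA through partners such as LRH-1, a receptor of the NR5A class.

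The promoters of 6 members are shown because they span the patterns described below. Atp5pb had the strongest peak of all members, and Atp5l belongs to the same complex with no summit near it. Cycs had its summit just inside the start of the gene. Cox6a1 had a strong peak whose summit lay 4507 bp beyond the gene end opposite its promoter. Ndufs5 was the strongest complex I member, and Ndufa7 shared its peak with a ribosomal protein gene. Atp5l, Cycs, Ndufs5 and Ndufa7 were chosen after their values were seen. Each sequence runs from 250 bases before the listed transcription start to 30 bases from the start onwards, in RefSeq's GRCm38.p6. Positions are chr3:105959234-105959513, minus strand for Atp5pb; chr9:44920713-44920992, minus strand for Atp5l; chr6:50566540-50566819, minus strand for Cycs. Cox6a1 lies at chr5:115348929-115349208, minus strand, Ndufs5 at chr4:123718157-123718436, minus strand, and Ndufa7 at chr17:33824322-33824601, plus strand. Capitals mark matches to the motifs defined further on.
Atp5pb: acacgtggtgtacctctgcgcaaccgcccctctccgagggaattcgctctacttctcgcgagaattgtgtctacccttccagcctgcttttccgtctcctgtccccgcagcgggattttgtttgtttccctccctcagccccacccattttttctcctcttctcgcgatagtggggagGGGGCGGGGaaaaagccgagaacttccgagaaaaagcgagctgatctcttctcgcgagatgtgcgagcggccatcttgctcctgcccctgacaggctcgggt
Atp5l: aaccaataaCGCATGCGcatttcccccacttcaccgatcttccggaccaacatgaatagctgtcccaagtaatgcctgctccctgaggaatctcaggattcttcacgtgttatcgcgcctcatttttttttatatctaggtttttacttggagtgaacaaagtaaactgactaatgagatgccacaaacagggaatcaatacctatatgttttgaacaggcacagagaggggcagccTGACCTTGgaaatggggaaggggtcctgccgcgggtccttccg
Cycs: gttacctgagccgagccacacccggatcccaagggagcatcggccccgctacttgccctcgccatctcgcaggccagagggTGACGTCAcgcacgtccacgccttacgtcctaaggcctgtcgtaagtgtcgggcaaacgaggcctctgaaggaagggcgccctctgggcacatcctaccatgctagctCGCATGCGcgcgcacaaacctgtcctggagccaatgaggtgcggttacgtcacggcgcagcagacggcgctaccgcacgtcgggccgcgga
Cox6a1: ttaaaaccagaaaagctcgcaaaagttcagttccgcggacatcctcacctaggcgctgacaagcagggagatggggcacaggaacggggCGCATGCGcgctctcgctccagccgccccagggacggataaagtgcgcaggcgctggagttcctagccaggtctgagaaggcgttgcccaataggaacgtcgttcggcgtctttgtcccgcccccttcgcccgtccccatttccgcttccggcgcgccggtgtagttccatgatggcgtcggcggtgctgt
Ndufs5: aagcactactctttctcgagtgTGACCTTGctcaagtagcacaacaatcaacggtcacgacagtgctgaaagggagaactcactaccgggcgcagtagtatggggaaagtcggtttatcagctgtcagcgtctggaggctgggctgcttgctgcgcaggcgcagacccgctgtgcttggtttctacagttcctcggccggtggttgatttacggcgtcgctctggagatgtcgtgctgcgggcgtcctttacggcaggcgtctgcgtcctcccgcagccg
Ndufa7: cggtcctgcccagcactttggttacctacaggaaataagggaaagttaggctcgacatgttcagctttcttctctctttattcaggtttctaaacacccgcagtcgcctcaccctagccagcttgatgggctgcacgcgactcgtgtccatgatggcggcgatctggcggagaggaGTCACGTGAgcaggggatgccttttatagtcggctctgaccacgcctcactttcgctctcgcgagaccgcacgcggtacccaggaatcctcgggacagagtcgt
In Atp5pb the capitals are an SP/KLF match at position -72, counted back from the start. In Atp5l they are an NRF1 match at -241 and an NR5A match at -13, read on the opposite strand. In Cycs they are a CREB match at -169 and an NRF1 match at -61. Cox6a1 held an NRF1 match at -161, Ndufs5 an NR5A match on the opposite strand at -228, and Ndufa7 a TFEB match at -74.

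A gene was counted as occupied when a wild-type summit, the position of highest signal within a peak, lay within 5 kb of either gene end. By this measure 33 of 95 members were occupied (34.7%, 95% exact binomial interval 25.3 to 45.2), and 62 were not. Over all protein-coding genes the share was 27.9% (5758 of 20665), within the interval of the members. The intervals cover counting error only, and genes are not independent replicates. The 33 members had 35 summits, since Ndufv2 and Uqcr11 had 2 each, and no summit was shared between members. No member had a knockout summit within 5 kb. The nearest was 176026 bp away, but a list of 7 peaks filtered differently shows little about the background at these genes.

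By complex, the ATP synthase had the highest share among the 4 complexes with 9 or more members, and all the intervals overlapped. It had 8 of 17 genes occupied (47.1%, 23.0 to 72.2). Complex III had 3 of 9 (33.3%, 7.49 to 70.1), complex I had 12 of 39 (30.8%, 17.0 to 47.6) and complex IV had 5 of 17 (29.4%, 10.3 to 56.0). Complex II had 1 of 4 (25%, 0.631 to 80.6), the Ndufaf assembly factors had 3 of 8 (37.5%, 8.52 to 75.5), and Cycs, the single gene for cytochrome c, was occupied. Each of these intervals held the 27.9% of all genes, and the differences between complexes were not tested. With each summit counted only for its nearest protein-coding gene, 22.1% of all genes were occupied. By that rule complex V had 4 of 17, complex III 2 of 9, complex I 8 of 39 and complex IV 3 of 17.

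**Figure D1:**
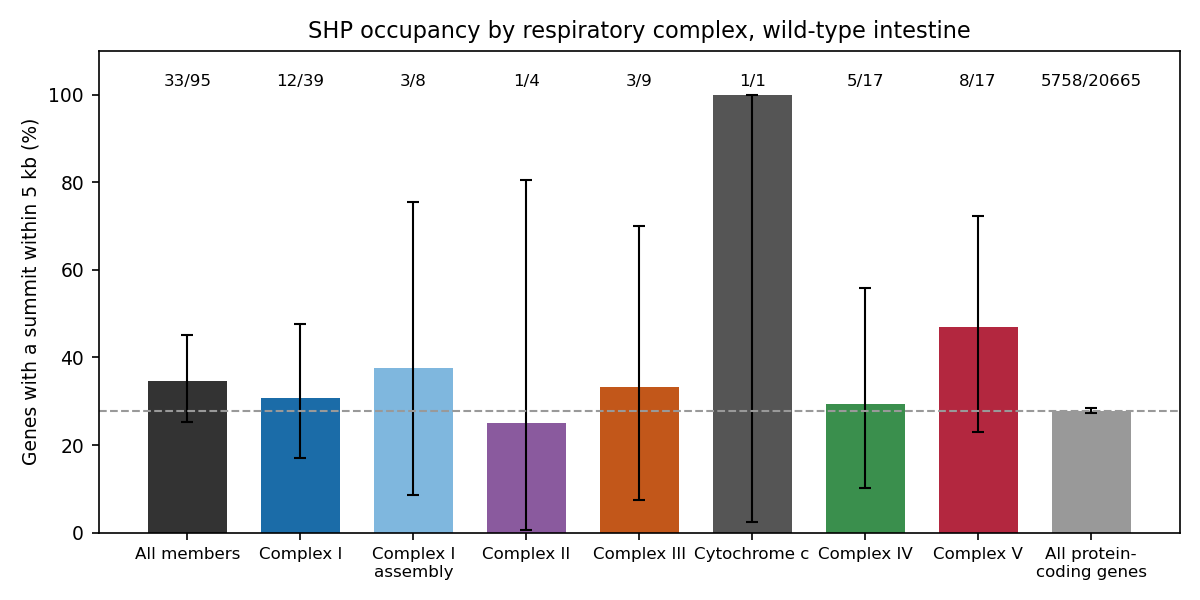
Share of genes with a wild-type SHP summit within 5 kb of an end (percent, vertical axis) for all 95 members, for each complex, and for all protein-coding genes. Bars show the share, error bars the 95% exact binomial interval, the dashed line the 27.9% of all genes, and the numbers above the bars the occupied genes over all genes; every interval reaches the dashed line.

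In the ATP synthase the occupied genes were mostly those of F1, the part that holds the catalytic sites. All 5 F1 genes were occupied. They were Atp5a1 and Atp5b (alpha and beta, which form the catalytic sites), Atp5c1 (gamma, the central shaft), Atp5d (delta) and Atp5e (epsilon). None of the 3 genes for the c ring that turns in the membrane (Atp5g1, Atp5g2 and Atp5g3) was occupied. Of the peripheral stalk, which holds the alpha and beta subunits still, 2 of 4 were occupied. These were Atp5pb (subunit b) and Atp5j (subunit F6), while Atp5h and Atp5o (OSCP) were not. Of the other membrane subunits 1 of 5 was occupied, the small proteolipid Atp5mpl, and Atp5j2, Atp5k, Atp5l and Atp5md were not. With groups of 3 to 5 genes the exact intervals were wide. The intervals were 0 to 70.8% for the c ring, 6.76 to 93.2% for the stalk and 0.505 to 71.6% for the other membrane subunits. All of these held the 27.9% of all genes. That of F1, 47.8 to 100%, lay above it, but the division was made with the values in view. It gets no test, and the position of the F1 interval cannot serve as one. The Atp5a1, Atp5b and Atp5c1 summits were also nearer to another gene's end than to the F1 gene.

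The strength of a peak is given by the enrichment value that the authors deposited for it, whose scale is not stated. It is used here only to rank peaks within the wild-type list. Atp5pb had 12.9, rank 5 among 5775 peaks, at chr3:105958676-105960048, with the summit 44 bp before the start. Atp5a1 had 8.07, Atp5e 7.28 and Atp5c1 6.93, all above the third quartile of the whole list (6.46). Atp5mpl followed with 6.03, Atp5j with 5.74, Atp5d with 5.10 and Atp5b with 5.04. The F1 genes ranged from 5.04 to 8.07, and Atp5b, the catalytic beta subunit, had the weakest peak of the complex.

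Several of these peaks also lay at another gene. The Atp5pb summit was 191 bp from an end of Wdr77, a partner of the arginine methyltransferase PRMT5. The Atp5c1 summit lay 99 bp before its start and 58 bp from Kin, and the Atp5a1 summit lay 308 bp from an end of Atp5a1 and 191 bp from Haus1, an augmin subunit. The Atp5j summit, 518 bp from the gene end, was 448 bp from Gabpa, which encodes the DNA-binding subunit of GABP. Only the Atp5e summit (90 bp into the gene), the Atp5d summit, the Atp5pb summit and the Atp5mpl summit (110 bp inside the gene) were nearer to the ATP synthase gene than to any other protein-coding gene. The Atp5d summit lay 481 bp inside an end of the annotated gene, but 3096 bp before the nearest listed start. The Atp5b summit was outside the gene, 2339 bp from its end and 9420 bp from its start, and 1357 bp from Baz2a, a chromatin remodelling subunit.

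In complex I, 1 of the 7 nuclear genes for the conserved core was occupied, and 11 of 32 accessory genes were (34.4%, 18.6 to 53.2). The occupied core gene was Ndufv2, which carries an iron-sulfur cluster in the NADH-oxidising module. Its summit 73 bp before the start had an enrichment value of 3.17, and a second, 1660 bp beyond the other end, had 4.04. These were low in the list, at ranks 5693 and 5339. Among the core genes without a summit within 5 kb were Ndufs7 and Ndufv1, which takes up the electrons of NADH. The interval for 1 of 7 ran from 0.361 to 57.9%. Both intervals held the 27.9% of all genes, and the core and the accessory genes could not be told apart by these counts.

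Among the accessory genes the strongest peak was at Ndufs5, with 7.37 and the summit 40 bp into the gene. No other protein-coding gene had an end within 5 kb of it. Ndufb6 had 6.32, Ndufb9 6.30, Ndufa2 6.21 and Ndufa6 6.01. Ndufb10 and Ndufa11 both had 5.64, Ndufa3 5.54, Ndufa13 (GRIM19) 5.29, Ndufab1, the mitochondrial acyl carrier protein, 4.69, and Ndufa7 4.66. The 12 complex I genes had a median of 5.64, close to the 5.65 of all wild-type peaks. The Ndufab1 summit was 37 bp before its start and, like that of Ndufs5, had no other gene within 5 kb.

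Other complex I summits were shared or belonged to a neighbour by distance. The Ndufa7 summit lay 3 bp before its start and 7 bp from Rps28, a cytosolic ribosomal protein gene, and in Ndufa11 the summit was 60 bp into the gene and 123 bp from Vmac. Ndufa2 and Ik, a splicing factor gene, shared a summit at 128 and 197 bp, and Ndufb9 and Tatdn1 at 81 and 126 bp. The Ndufb6 summit was 983 bp outside the gene at the end opposite its start, 29 bp from Smim27 and 233 bp from Topors. In Ndufa6 it was 4154 bp outside, again beyond the far end, and 61 bp from Smdt1, which encodes the EMRE subunit of the mitochondrial calcium uniporter. The Ndufb10 summit, 1981 bp from its end, was 1848 bp from Rps2. Ndufa13 had its summit 996 bp from an end and 458 bp from its listed start, with Tssk6 622 bp away, and the Ndufa3 summit was 111 bp after a listed start.

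Among the assembly factors, Ndufaf4 (4.93), Ndufaf2 (4.91) and Ndufaf8 (4.29) were occupied, all below the list median. The Ndufaf4 summit was 12 bp before the start with no other gene within 5 kb. Ndufaf2 shared its summit with Ercc8, a transcription-coupled repair gene 429 bp away, and Ndufaf8 shared its summit with Tepsin, 182 bp away. Ndufaf3 was the closest of all unoccupied members, with a summit 5169 bp from its end. Ndufaf1, Ndufaf5, Ndufaf6 and Ndufaf7 had none within 5 kb.

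In complex II, Sdha, the flavoprotein that oxidises succinate, had a peak of 4.93 with the summit 23 bp before its start and 54 bp from Ccdc127. The iron-sulfur subunit Sdhb and the membrane anchors Sdhc and Sdhd were not occupied. In complex III, Cyc1, which encodes cytochrome c1, had 9.10, rank 41 in the list and second among all members. Its summit lay 46 bp inside the gene. The small subunit genes Uqcr10 (5.71, summit 136 bp into the gene) and Uqcr11 (6.55) were also occupied, but the 2 Uqcr11 summits were 3864 and 4316 bp away and nearer to Mbd3 and Tcf3. Uqcrfs1, the Rieske protein, both core genes Uqcrc1 and Uqcrc2, and Uqcrb, Uqcrh and Uqcrq were not occupied. Cycs had 6.46 with the summit 148 bp into the gene and no other gene within 5 kb.

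With each gene taken by its strongest peak, complex IV held the third strongest and the weakest of the 33 occupied members. Cox6a1 had 8.76, but its summit was 7813 bp from the start, 4507 bp beyond the far end, and lay 16 bp from Gatc and 86 bp from Triap1. Gatc encodes a subunit of the mitochondrial glutamyl-tRNA amidotransferase, and Triap1 part of a carrier of phosphatidic acid in the intermembrane space. Cox5a had 4.81 with the summit 108 bp after its start. Cox4i1, the ubiquitous form of subunit IV, had 3.63, the lowest of these 33 values, and its summit was 142 bp outside the gene and 4 bp from Emc8, of the ER membrane complex.

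Complex IV also has tissue-restricted subunit forms, which were counted beside the ubiquitous forms. The list written for this held 7 restricted forms, counting Ndufa4l2 as the partner of Ndufa4. Of these, Cox4i2 (4.47, summit 298 bp inside the gene) and Cox6b2, the testis form (6.76, summit 253 bp into the gene and 385 bp from Fam71e2), were occupied. Of the 6 ubiquitous forms listed beside them, Cox6a1 and Cox4i1 were occupied. The counts were thus 2 of 7 (28.6%, 3.67 to 71.0) and 2 of 6 (33.3%, 4.33 to 77.7), not compared pair by pair. Both intervals held the 27.9% of all genes. The Cox6a1 and Cox4i1 summits were nearer to another gene's end, while those of Cox4i2 and Cox6b2 were nearest to the member. Cox6a2, Cox7a1, Cox8b, Cox8c and Ndufa4l2, and the ubiquitous Cox6b1, Cox7a2, Cox8a and Ndufa4, were not occupied. The remaining complex IV genes Cox5b, Cox6c, Cox7a2l, Cox7b2 and Cox7c were on neither list and had no summit within 5 kb either.

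**Figure D2:**
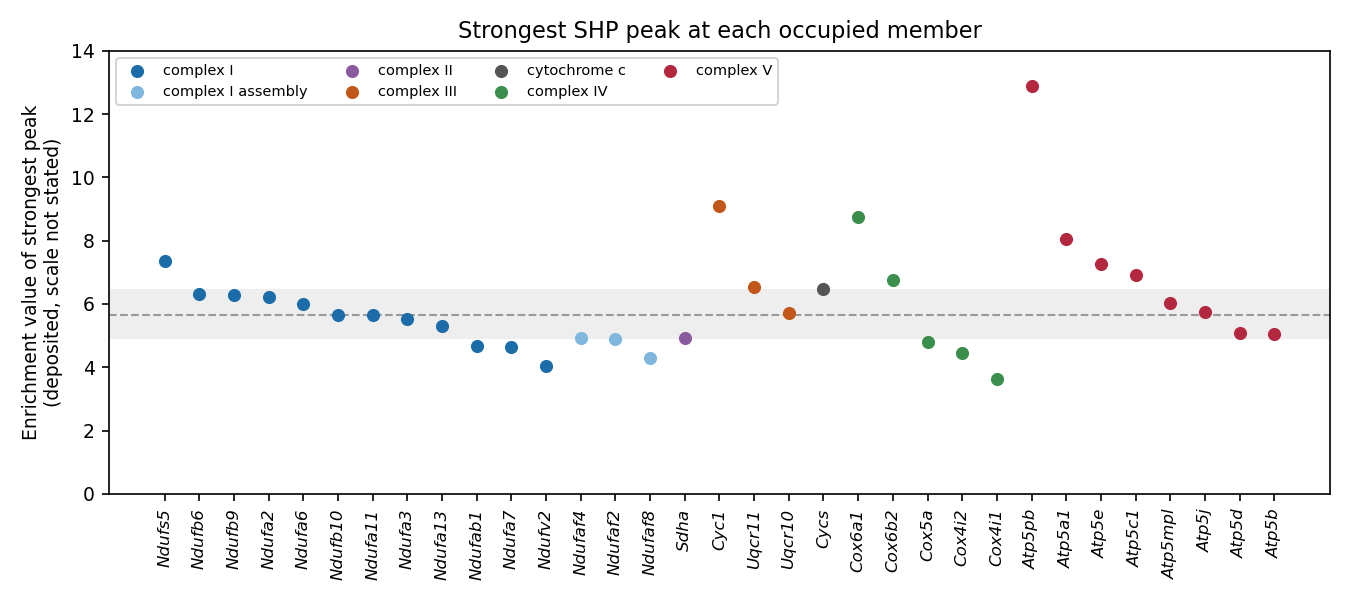
Enrichment value of the strongest SHP peak within 5 kb (vertical axis, deposited value with no stated scale) for each of the 33 occupied members, grouped and coloured by complex. The dashed line is the median of all 5775 wild-type peaks (5.65) and the grey band their interquartile range; Atp5pb stands highest at 12.9 and Cox4i1 lowest at 3.63.

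As a group the occupied members had peaks of ordinary strength. Their median enrichment value was 5.71 (interquartile range 4.93 to 6.55), against 5.72 (5.01 to 6.48) over all 5758 occupied genes. Of the 33, 17 were at or above the median of all peaks and 10 at or above the third quartile. The median −log10 p of their strongest peaks was 15.7, against 15.4 over all occupied genes, and the median width was 855 bp, against 1006 bp. The deposited values therefore placed Atp5pb, Cyc1, Cox6a1 and Atp5a1 high in the list and spread the other members through it.

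The remaining 19 unoccupied complex I subunits, after the core genes, Ndufa4 and Ndufa4l2, were Ndufa5, Ndufa8, Ndufa9, Ndufa10, Ndufa12, Ndufb1, Ndufb2, Ndufb3, Ndufb4, Ndufb4b, Ndufb4c, Ndufb5, Ndufb7, Ndufb8, Ndufc1, Ndufc2, Ndufs4, Ndufs6 and Ndufv3. Around the 5 kb limit, the farthest occupied members were Cox6a1 at 4507 bp, Ndufa6 at 4154 bp, Cox5a at 4012 bp and Uqcr11 at 3864 bp. Beyond it came Ndufaf3 at 5169 bp, Ndufb8 at 7494 bp, Atp5g1 at 7575 bp and Ndufs7 at 8177 bp.

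The summits were then placed relative to the listed transcription starts, which RefSeq's promoter table gave for 76 of 95 members and for 26 of the 33 occupied ones. The summit nearest to either gene end was used for each member. In 19 of those 26 (73.1%) it lay within 1 kb of a start, and over all occupied genes with a listed start the share was 78.1% (3627 of 4646). Within that 1 kb, 8 summits lay before the start and 11 after it, at a median of 99 bp and at most 458 bp. The other 7 were Atp5b, Atp5d, Cox6a1, Ndufa6, Ndufb6, Ndufb10 and Uqcr11. For all of these except Atp5d that summit lay beyond the end opposite the start and another protein-coding gene end was nearer to it. Uqcr11 also had its second summit, 4316 bp before the start. Occupied members with no start in the table were Atp5a1, Atp5mpl, Cox4i1, Cox4i2, Cyc1, Ndufa2 and Ndufb9.

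**Figure D3:**
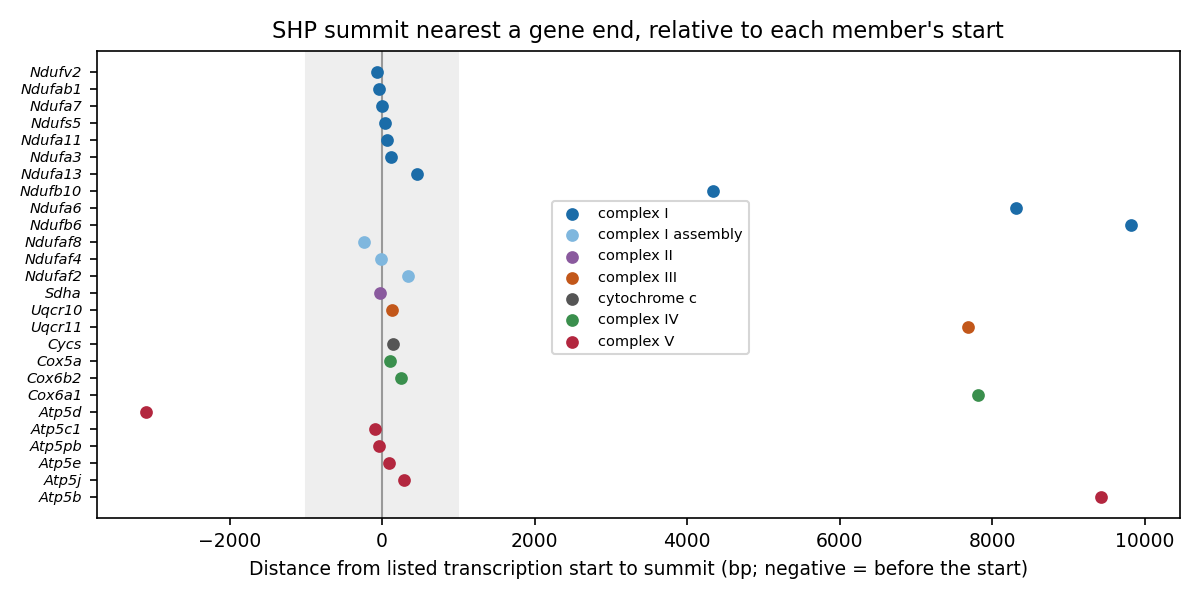
Distance in bp from the listed transcription start to the SHP summit nearest to either gene end (horizontal axis, negative before the start) for the 26 occupied members with a listed start, one row per gene, coloured by complex. The grey band marks 1 kb on each side; 19 members fall inside it, and Atp5b, Cox6a1, Ndufa6, Ndufb6, Ndufb10 and Uqcr11 have the plotted summit beyond the far end of the gene; the second Uqcr11 summit, 4316 bp before its start, is not drawn.

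The members were short and closely packed, and genes with a close neighbour were more often occupied. The median annotated length was 7279 bp for the members, against 17491 bp for all protein-coding genes. Occupied and unoccupied members had medians of 6487 and 7576.5 bp, while over all genes the occupied ones were longer, at 22189.5 bp against 15879 bp for the unoccupied ones. Of the members 77.9% had another protein-coding gene with an end within 5 kb of their own ends, against 47.4% of all genes. In the occupied members the nearest summit was within 1 kb of another gene's end in 19 of 33 (57.6%), against 29.2% over all occupied genes (1684 of 5758), and another gene's end was nearer in 12 (36.4%), against 21.2%. Members with such a neighbour were occupied in 30 of 74 cases (40.5%, 29.3 to 52.6), against 37.7% of all genes with a neighbour. Members without a neighbour were occupied in 3 of 21 cases (14.3%, 3.05 to 36.3), against 18.97% of all genes without one. Within each class the members' interval held the value of all genes. The part of gene packing in the result was not tested.

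The counting rule decided how far the members stood from all genes. When each summit counted only for its nearest protein-coding gene, 21 of 95 members were occupied (22.1%, 14.2 to 31.8), and the share of all genes was also 22.1%. Within 1 kb of either end it was 27 members (28.4%) against 21.8% of all genes, and within 10 kb it was 37 (38.9%) against 32.2%. With the stronger part of the list, from its median −log10 p upwards, it was 18 (18.9%) against 15.6%, and from the 75th percentile of enrichment upwards 10 (10.5%) against 7.23%. Counting any peak that overlapped the gene or the 5 kb beside it gave 34 (35.8%) against 30.3%. Over genes with a listed start it was 22 of 76 members (28.9%) against 25.8% within 5 kb of a start, and 19 of 76 (25%) against 23.4% within 1 kb. The last of these rules was chosen after seeing the data. In each of these rules the share of all genes lay inside the members' interval.

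**Figure D4:**
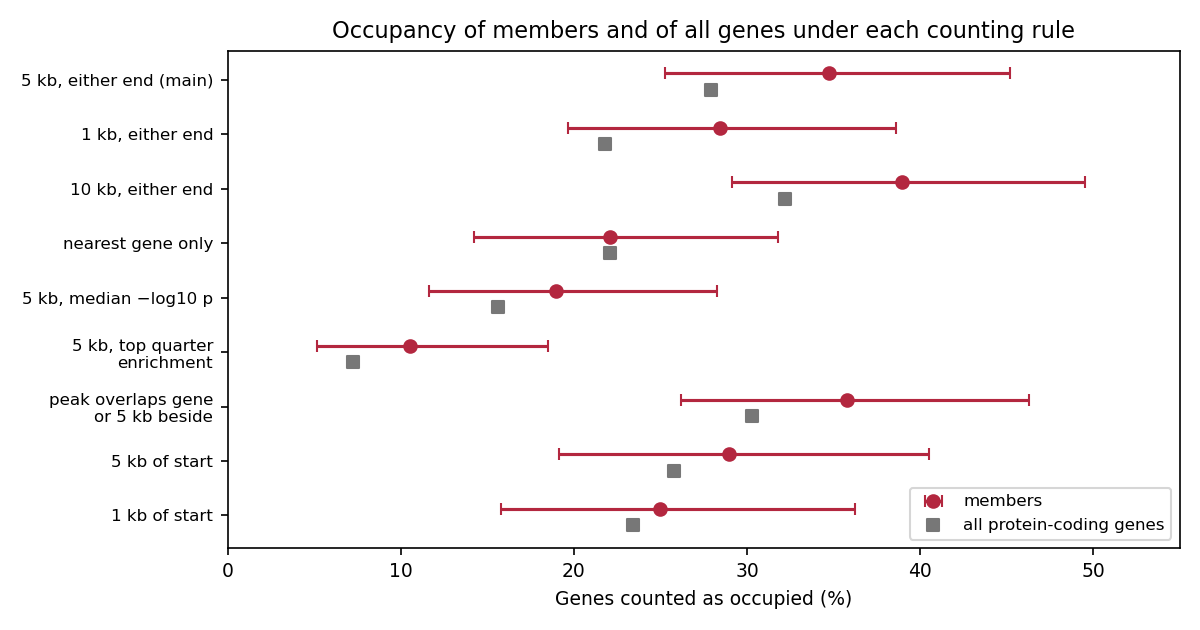
Percentage of genes counted as occupied (horizontal axis) under each of 9 counting rules, for the members (red circles with 95% exact binomial intervals) and all protein-coding genes (grey squares). The members lie above all genes except under the nearest-gene rule, where both are at 22.1%, and every interval includes the grey square.

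The promoters of 76 members were searched on both strands, over 250 bases before and 50 bases from the start, for 8 exact motifs. These were CGCATGCG (core of the NRF1 site), CCGGAAGT (ETS factors such as GABP), AAGATGGCG (YY1), GGGGCGGGG (SP and KLF factors), CAAGGTCA (NR5A receptors, also the half-site of ERR), CAAAGTCCA (HNF4), TGACGTCA (CREB and ATF) and GTCACGTGA (TFEB and its relatives). None of them contains another. A match is a description of the letters and not a bound site, and no p was computed.

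The NRF1 core was in 11 of 76 member promoters (14.5%), against 2.59% of 16457 promoters of all protein-coding genes. It was in 5 of 26 occupied members (19.2%), namely Cox6a1, Cycs, Ndufa11, Ndufaf4 and Uqcr11, and in 6 of 50 unoccupied members (12%). Over all occupied genes it was in 4.00%. Of the 5, Cox6a1 and Uqcr11 had no summit within 1 kb of the start. The YY1 motif was in 7 member promoters (9.21%), against 1.92% of all, and lay in 1 occupied and 6 unoccupied members. The NR5A motif was in 4 (5.26%), against 1.29% of all, namely in occupied Ndufs5 and in unoccupied Atp5g3, Atp5l and Sdhd. Motifs of these textbook regulators were thus found in members with and without a summit.

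The SP/KLF motif was in 7 of 26 occupied members (26.9%) and in 5 of 50 unoccupied members (10%). Over all genes it was in 25.96% of occupied promoters and 16.0% of all promoters. Of the 7 occupied members with it, Atp5b and Ndufa6 had no summit within 1 kb of the start. The ETS motif was in 5 members (6.58%), against 5.44% of all, and CREB in 5 (6.58%), against 2.40%. The TFEB motif was in Ndufa7 alone (1.32%), against 1.01% of all, and HNF4 in 0 members, against 0.431%. The median GC content of the 300 bases was 60.5% in occupied members and 56.8% in unoccupied members, and was 63.7% over all occupied genes and 56.7% over all genes.

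**Figure D5:**
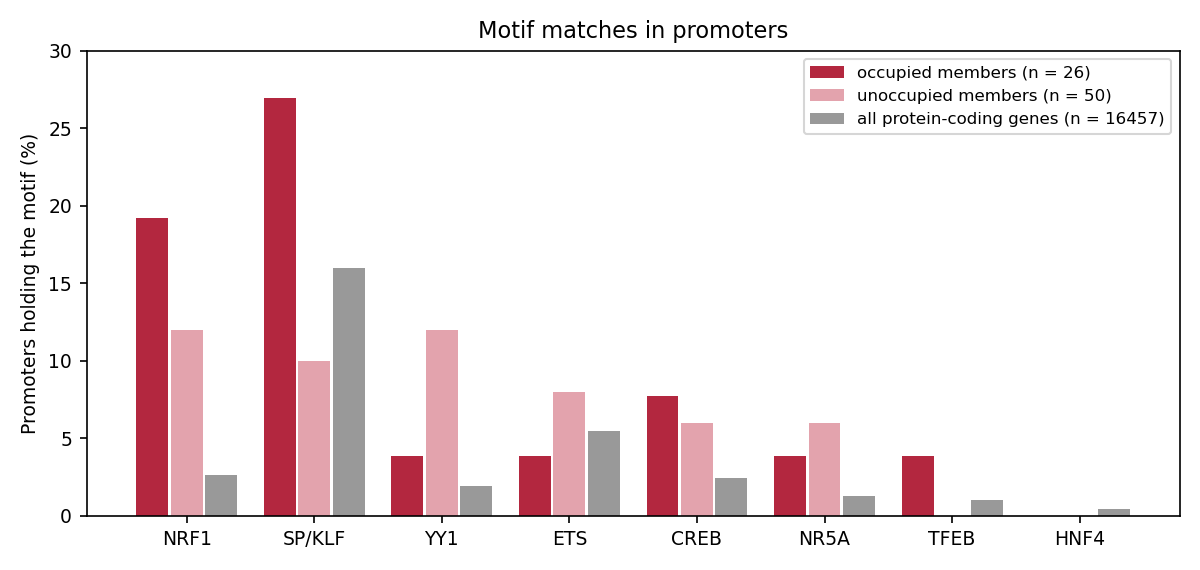
Percentage of promoters holding each motif (vertical axis) in occupied members, unoccupied members and all protein-coding genes with a listed start. NRF1 matches are in 19.2%, 12% and 2.59% of them and SP/KLF matches in 26.9%, 10% and 16.0%.

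Other genes of mitochondrial respiration had higher shares than the members, in lists written with earlier results of these data known, and the differences were not tested. The share of all genes was 27.9%, as above. Assembly factors outside the symbol rule were occupied in 24 of 49 cases (49.0%, 34.4 to 63.7), led by the copper-delivery genes Cox11 (9.79) and Sco1 (9.43), then Lyrm7 (7.64), Timmdc1 (7.45) and Acad9 (6.82). With the nearest gene only, 14 of the 49 were occupied, and 22.1% of all genes were. For the lists that follow, the same rule gave 5 of 13 citric acid cycle genes and 10 of 21 regulators. Genes of the citric acid cycle were occupied in 6 of 13 cases (46.2%, 19.2 to 74.9), with Idh3b (7.03, summit 4969 bp from an end), Ogdh (6.86), Suclg1 (6.79), Mdh2 (6.72) and Idh2 (6.37, summit 3344 bp away) highest. Regulators of mitochondrial genes and mitochondrial DNA were occupied in 12 of 21 cases (57.1%, 34.0 to 78.2). The highest were Ssbp1, which binds single-stranded mitochondrial DNA (10.8), the polymerase Polg (7.45, summit 1504 bp away), the coactivator Ppargc1a (7.02), Mterf3 (6.22) and Gabpa (5.74), whose peak is the one shared with Atp5j.

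The members' 34.7% lay below the shares of the other nuclear families of mitochondrial proteins that were counted the same way. Mitochondrial ribosomal protein genes were occupied in 33 of 78 cases (42.3%, 31.2 to 54.0), and the mitochondrial carriers of the Slc25a family in 19 of 43 (44.2%, 29.1 to 60.1). The intervals overlapped that of the members (25.3 to 45.2), and the differences were not tested. The share of all genes was 27.9%. Both families were counted by the rule of 5 kb from either gene end only.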

How the data were processed

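Per the labels' protocols, SHP was immunoprecipitated from pooled jejunum and ileum, and the submitters' processing notes name CASAVA 1.4, BWA and mm10. The peak caller, its settings and any pooling of sets were not given in the sources used here. The authors deposited lists in the 10-column narrowPeak layout, with a score, an enrichment value (a signal whose scale is not stated), −log10 p and −log10 q per peak and a summit offset. Per the file names, the wild-type list was filtered at an irreproducible discovery rate of 0.05 and the knockout list holds overlapping peaks. Depth is unknown. Input samples were not analysed here.

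Summits were placed at start plus offset plus 1 and matched to RefSeq genes of GRCm38.p6, which shares mm10 coordinates (Python 3.11.15, pandas 2.3.3, scipy 1.17.1). Positions in the first 3 Mb belonged to 105 genes, none a member and none occupied, and without them the share of all genes was 28.0%. Exact (Clopper-Pearson) 95% intervals were computed. No test was made, since each genotype had 1 list. The distance counting was checked on peaks placed at known genes. Members, lists and complex divisions were chosen with earlier results of these data known. Some members are not reported here by name. Every occupied member is named, and the 5 highest genes of each comparison list.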

Additional observations from a re-analysis of the deposited data

How the results depend on the processing

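Of 125 values recomputed under alternative rules, 92 stayed within the limits set for them (1.5 times for counts, 1 SD over members for medians, the exact interval for the share of all genes), and 33 moved. The limit for medians was wide, since summit distances at occupied members ran from 3 to 4507 bp. A median enrichment of 7.32 from the 75th percentile upwards, against 5.71, still counted as unmoved. The share of all genes moved to 21.8% within 1 kb, 32.2% within 10 kb, 22.1% with the nearest gene only, 15.6% at the median −log10 p, 7.23% from the 75th percentile of enrichment upwards, 30.3% by overlap, and 25.8% and 23.4% within 5 kb and 1 kb of a start. Occupied members moved to 21 (nearest gene), 18 (median −log10 p), 10 (75th percentile) and 19 (1 kb of a start). Within 1 kb of an end complex IV had 3. With the nearest gene only, complex IV had 3, complex V 4 and the outside assembly factors 14. At the median −log10 p, complex I had 7 and complexes III and IV and the Ndufaf genes 1 each. From the 75th percentile of enrichment upwards, complex I had 1, complex IV 2, complex V 4, the Ndufaf genes and complex II 0, the outside assembly factors 6 and the regulators 3. Within 5 kb of a start complex IV had 2 and complex V 5; within 1 kb of a start complex I had 7, complex III 1, complex IV 2 and complex V 4. Fewer peaks or fewer genes entered several of these by construction; otherwise the cause was not tested. Moving Ndufa4 to complex IV, with Ndufa4l2 left in complex I, and leaving out assembly factors moved no count past the limit. No paired analysis was possible because each genotype had 1 peak list and the result comes from no test.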

Other observations

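Members' relatives outside the symbol and chromosome rule had no SHP summit within 5 kb. The X-linked complex genes Ndufa1, Ndufb11 and Cox7b had their nearest summits 1373513, 70844 and 6879521 bp away. None of 19 annotated pseudogene copies of members, such as Atp5pb-ps, had a summit within 5 kb. Shares over all pseudogenes and over all X-linked genes were not counted, so these counts have no background beside them. The nearest summit to Atp5pb-ps was 19755 bp away. Neither list held a peak on the mitochondrial genome. Atpif1, which encodes the inhibitor of the ATP synthase, had its nearest summit 20101 bp away. Of the textbook regulators of respiratory genes, Nrf1 (4.82, summit 68 bp from an end), Yy1 (5.27, 11 bp), Esrra (5.41, 329 bp) and Gabpa (5.74, 448 bp) were occupied. Gabpb1 and Gabpb2, for the partner subunit of GABP, and the receptor Esrrg were not, with their nearest summits 9072, 10511 and 392994 bp away, nor were Tfam, Tfb1m, Tfb2m and Ppargc1b.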
